A study of Mus musculus with 3 samples.

Results

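Genes of the p53 response, 10 in all, were followed through the white cells of mouse blood: Trp53, which encodes p53 itself, 6 genes known to be switched on by p53 (Mdm2, Ccng1, Sesn1, Zmat3, Phlda3 and Trp53inp1) and the 3 members of the Gadd45 family (Gadd45a, Gadd45b and Gadd45g). They were chosen by name, with earlier results of these data known, and are 10 of the 32285 genes in the deposited matrices. Each symbol stood on a single row, and all 10 had at least 1 UMI (unique molecular identifier, a count of captured RNA molecules) in each library. Because the choice was made with their values in view, every level and ratio given for them is a description and none is a test.

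The data were droplet-based 3′ single-cell RNA libraries of peripheral blood mononuclear cells (PBMCs). The young library came from mice of 8 weeks and the aged library from mice of 16 months, both labelled as untreated, although the methods describe buffer injections for controls. The aged-GA library (Aged+GA in the labels) came from mice of 16 months given glycyrrhizic acid, a saponin of liquorice root, for 1 month by injection into the tail vein. All were female C57BL/6 mice, the young ones bought and the aged ones reared in the laboratory, and each group was 1 library, so age, source and library cannot be told apart. The study describes several mice per group, and the labels do not say how their cells came to be in 1 library, so no spread between mice can be had.

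p53 is a transcription factor that is held at a low level by its ubiquitin ligase Mdm2 and is stabilised after DNA damage and other stress, when it raises transcription of Mdm2 and of genes for cell cycle arrest, repair and cell death. The Gadd45 proteins are small stress sensors that bind the kinase Map3k4, PCNA and cyclin-dependent kinases. Gadd45a is a classic p53 target, whereas Gadd45b and Gadd45g are mostly known from signalling through cytokines, NF-kappaB and antigen receptors. Sestrin 1, the product of Sesn1, restrains the mTORC1 kinase and is controlled by both p53 and FoxO factors.

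On the mouse genome GRCm38, the annotation places Gadd45a on chromosome 6 (67035096 to 67037457, minus strand), Gadd45b on chromosome 10 (80930073 to 80932204, plus strand) and Gadd45g on chromosome 13 (51846678 to 51848468, plus strand), each a short gene of 1791 to 2362 bases. Sesn1, on chromosome 10 (41809935 to 41908424, plus strand), spans 98490 bases. Reads in Gadd45a can meet the noncoding gene E230016M11Rik on the other strand, which has a row of its own in the matrices, and those in Sesn1 the tentative transcript 9930024M15Rik on the same strand, which has none. The remaining 8 genes overlap no other annotated gene. The 250 bases before the start sites of the genes on which the results turn are shown so that elements shared by them can be looked for. RefSeq (GRCm38.p6) gave them for 8 of the 10 genes, and Zmat3 and Trp53inp1 are named only. The RefSeq start sites are not always the ends of the genes as annotated. The windows of Gadd45a, Gadd45b and Ccng1 thus reach into the annotated gene, and the Sesn1 window shown lies inside it. The p53 match of Gadd45a is within its annotated gene. Capitals mark matches, on either strand, to the p53 consensus motif (a single copy of the element that p53 binds as a pair), to the AP-1 site TGANTCA, to the cAMP response element core TGACG, to the TATA box TATAAA and to the NF-kappaB consensus. No match overlapped another in the windows shown.
Gadd45a, chr6:67037408-67037657, minus strand: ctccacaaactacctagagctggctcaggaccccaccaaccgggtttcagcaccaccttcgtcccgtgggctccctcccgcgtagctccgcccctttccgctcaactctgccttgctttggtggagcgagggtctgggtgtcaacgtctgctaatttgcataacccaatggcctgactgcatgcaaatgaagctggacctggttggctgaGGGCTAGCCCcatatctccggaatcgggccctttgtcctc
Gadd45b, chr10:80929841-80930090, plus strand: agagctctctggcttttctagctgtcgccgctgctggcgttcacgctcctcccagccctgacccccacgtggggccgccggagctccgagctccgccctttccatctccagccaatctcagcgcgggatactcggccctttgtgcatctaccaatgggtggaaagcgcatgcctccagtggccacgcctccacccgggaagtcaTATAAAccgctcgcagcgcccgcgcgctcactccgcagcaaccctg
Gadd45g, chr13:51846425-51846674, plus strand: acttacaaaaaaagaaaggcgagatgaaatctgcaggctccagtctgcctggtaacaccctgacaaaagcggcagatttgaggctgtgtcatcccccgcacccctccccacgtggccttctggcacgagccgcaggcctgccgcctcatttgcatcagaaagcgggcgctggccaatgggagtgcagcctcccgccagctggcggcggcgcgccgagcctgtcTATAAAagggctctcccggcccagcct
Sesn1, chr10:41887189-41887438, plus strand: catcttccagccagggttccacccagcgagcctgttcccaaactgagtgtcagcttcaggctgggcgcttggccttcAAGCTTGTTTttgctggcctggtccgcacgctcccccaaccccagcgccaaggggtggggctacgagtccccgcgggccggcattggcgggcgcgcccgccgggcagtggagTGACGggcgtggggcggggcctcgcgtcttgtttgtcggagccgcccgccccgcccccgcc
Mdm2, chr10:117710759-117711008, minus strand: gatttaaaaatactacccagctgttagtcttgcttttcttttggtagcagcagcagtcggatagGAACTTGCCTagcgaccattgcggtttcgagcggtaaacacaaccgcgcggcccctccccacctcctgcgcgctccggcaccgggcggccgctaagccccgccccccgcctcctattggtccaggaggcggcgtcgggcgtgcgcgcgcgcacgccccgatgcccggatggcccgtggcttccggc
Ccng1, chr11:40755287-40755536, minus strand: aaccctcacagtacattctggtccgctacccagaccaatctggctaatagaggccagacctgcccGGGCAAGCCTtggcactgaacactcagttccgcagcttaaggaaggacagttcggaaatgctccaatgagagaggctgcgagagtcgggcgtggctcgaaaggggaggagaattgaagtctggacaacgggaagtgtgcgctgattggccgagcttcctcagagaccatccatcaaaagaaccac

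The p53 motif stood once in the windows of Trp53, Mdm2, Ccng1, Gadd45a and 1 of the 2 start sites of Sesn1, and was in neither Gadd45b, Gadd45g nor Phlda3. Over all 32851 promoter windows of this length it was in 7.13%, the AP-1 site in 6.75%, TGACG in 17.8%, TATAAA in 12.4% and the NF-kappaB consensus in 8.87%. Gadd45b and Gadd45g each had a TATA box and Gadd45a had none, and no window of the 3 held an AP-1 site or an NF-kappaB match. These are matches of letters in a short window: the best known p53 elements of Mdm2 and Gadd45a lie in introns, outside it.

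Filters on genes and mitochondrial UMIs, with the limits that the study states, left 8851 young, 10238 aged and 12648 aged-GA cells with 48249945, 53770440 and 75832322 UMIs. These numbers of cells are not those the study gives. A cell was gated as B, T, NK or myeloid where at least 3 different markers of the class had a UMI and at most 1 marker of each other class did, and the gated cells are called B, T, NK and myeloid cells here. The gates held 2279 young, 4228 aged and 5442 aged-GA B cells, 5203, 1775 and 2683 T cells, and 291, 197 and 180 NK cells. Myeloid cells were few in the young library, with 68 cells against 2130 aged and 846 aged-GA cells, and the neutrophils among them numbered 12, 841 and 507. Levels are in CPM, UMIs of a gene scaled to the summed UMIs of the same cells. The marker list of any other gated class summed to 283 CPM or less in NK cells and 77.2 CPM or less in B and T cells, whereas the lists of the own class summed to at least 3522 CPM. No more than 62 barcodes were shared by a pair of libraries. Red cell RNA differed: haemoglobin took 4.56% of the UMIs of B cells in the young, 11.8% in the aged and 8.75% in the aged-GA library, and the free myeloid transcripts Lyz2, S100a8 and S100a9 summed to 7.4, 311 and 178 CPM in B cells. Markers of plasma cells in the B gate summed to 317, 960 and 778 CPM. The part of these in the results was not tested. Levels are given with exact Poisson 95% intervals, and ratios as log2 ratios with 1 CPM added to both levels, beside exact binomial 95% intervals of the counts. Both kinds of interval cover counting error only.

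The Gadd45 genes were lower in the aged than in the young library in B, T and NK cells, by 2.13-fold to 3.75-fold in B and T cells. They were also lower in myeloid cells as a class, although there Gadd45a and Gadd45g were higher among cells with 2000 to 6000 UMIs, with log2 ratios of 0.43 and 1.11. In B cells, Gadd45b stood at 313 CPM (302 to 325) in the young library, 82.8 CPM (78.5 to 87.3) in the aged and 84.0 CPM (80.5 to 87.7) in the aged-GA library. The aged level was 3.75-fold lower than the young level, a log2 ratio of -1.91 (-2.01 to -1.83), and the aged-GA library sat beside the aged library. Gadd45g was also highest in young B cells, at 147 CPM (139 to 155) in young, 39.7 CPM (36.7 to 42.8) in aged and 36.8 CPM (34.4 to 39.2) in aged-GA cells, with a log2 ratio of -1.86 (-2.02 to -1.75) between aged and young. Gadd45a, the p53 target among them, was at 163 CPM (155 to 172), 57.7 CPM (54.1 to 61.5) and 67.5 CPM (64.3 to 70.8), with a log2 ratio of -1.49 (-1.62 to -1.38). For all 3 genes the intervals of the young library overlapped with neither of the aged libraries.

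**Figure D1:**
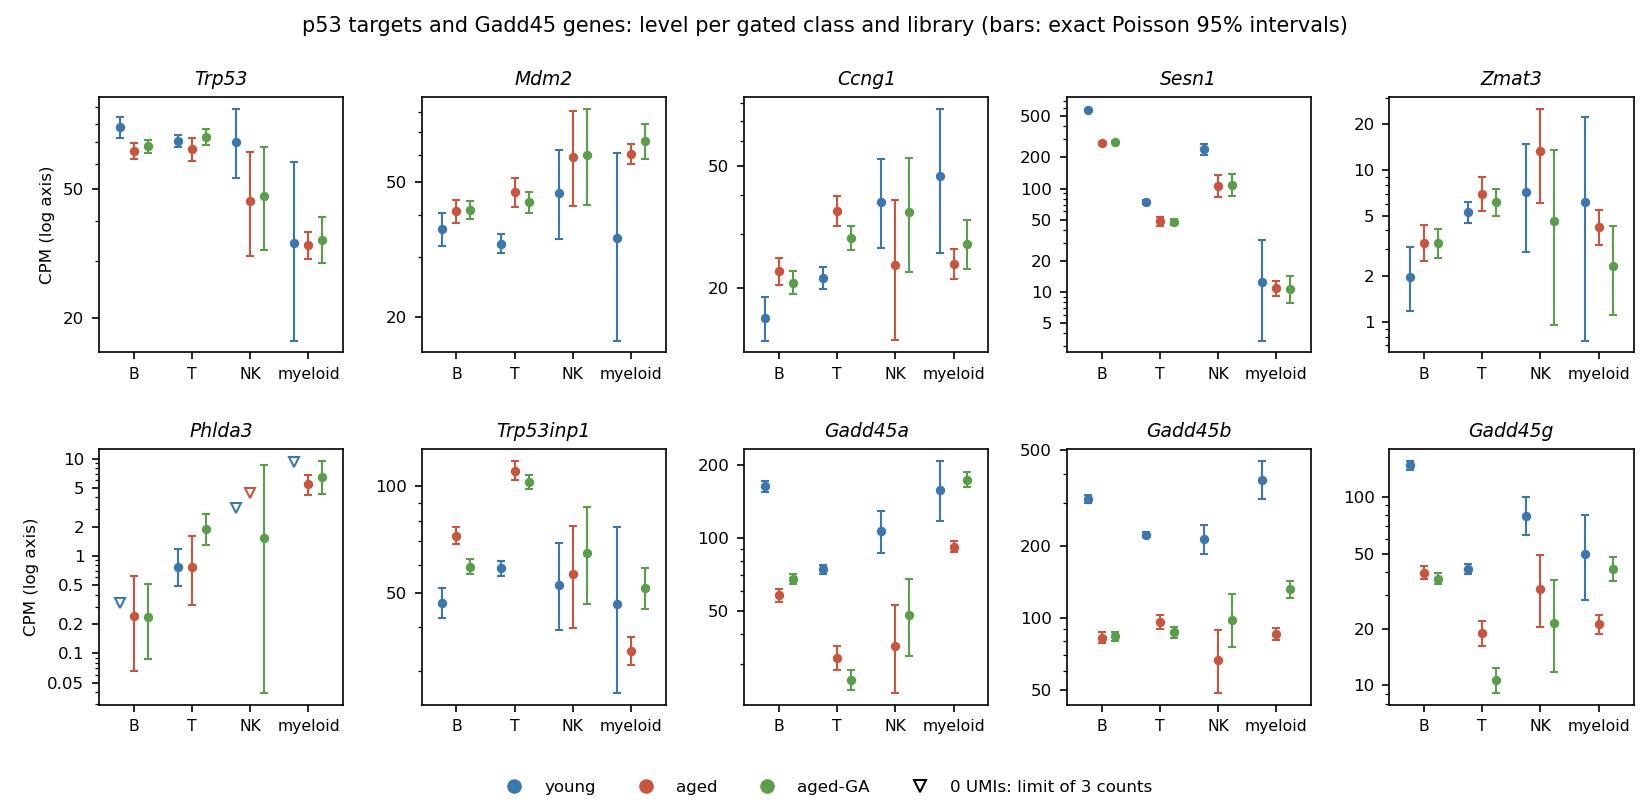
Level of each gene in CPM (log axis, a scale of its own in each panel) in B, T, NK and myeloid cells of the young (blue), aged (red) and aged-GA (green) libraries. Points are the CPM of summed UMIs, bars exact Poisson 95% intervals, and open triangles mark 0 UMIs, drawn at the limit that 3 counts set. The young points of Gadd45b lie above both aged libraries in all 4 classes, as 313 against 82.8 and 84.0 CPM in B cells.

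In T cells, too, the 3 genes were highest in the young library, and the fold differences were smaller. Gadd45b was at 222 CPM (217 to 228) in young, 96.7 CPM (90.4 to 103) in aged and 87.2 CPM (82.8 to 91.9) in aged-GA T cells, a log2 ratio of -1.19 (-1.30 to -1.10) between aged and young. Gadd45a was at 74.2, 31.9 and 25.9 CPM and Gadd45g at 41.5, 19.0 and 10.6 CPM, with log2 ratios of -1.19 and -1.09. The aged-GA value of Gadd45g, from 174 UMIs over 2683 cells, lay below that of the aged library, with no overlap of their intervals. In NK cells, where counts were small, Gadd45b was at 213 CPM (185 to 245) in young, 66.7 CPM (48.6 to 89.2) in aged and 98.5 CPM (75.8 to 126) in aged-GA cells, and the log2 ratios between aged and young were -1.66 for Gadd45b, -1.55 for Gadd45a and -1.26 for Gadd45g. Summed over the 3 genes, the levels were 624, 180 and 188 CPM in B cells, 338, 148 and 124 CPM in T cells, and 399, 135 and 168 CPM in NK cells of the young, aged and aged-GA libraries.

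**Figure D2:**
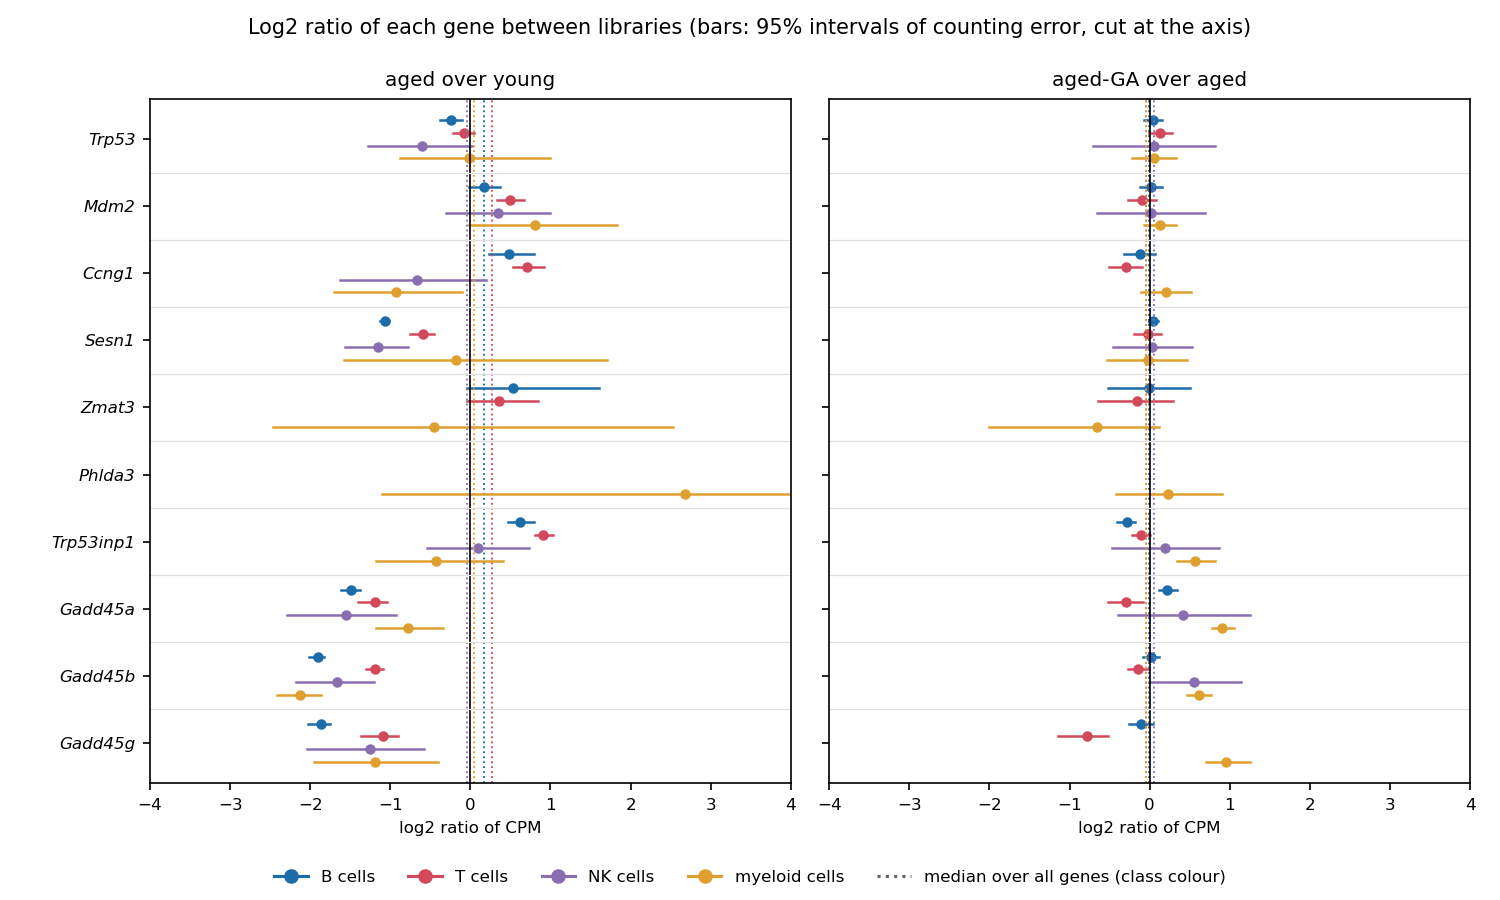
Log2 ratio of CPM (x axis) of each gene (rows) in the 4 classes (colours), aged over young on the left and aged-GA over aged on the right. Points are genes with 50 UMIs or more in the pair of libraries, bars 95% intervals of counting error cut at the axis, and dotted lines the median over all genes of a class. The Gadd45 genes lie left of 0 in B, T and NK cells on the left panel, from -1.09 for Gadd45g in T cells to -1.91 for Gadd45b in B cells, while on the right panel the myeloid points of all 3 lie right of 0, although Gadd45a was at -0.10 within monocytes.

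Myeloid cells need their make-up beside the values, since neutrophils carried several times more Gadd45a than monocytes and their share of the class differed. Monocytes of the aged library had 29.9 CPM (26.3 to 33.8) of Gadd45a and its neutrophils 295 CPM (275 to 317). Over the whole myeloid class, Gadd45a was at 158, 92.0 and 174 CPM in young, aged and aged-GA cells, but among monocytes alone at 108, 29.9 and 27.8 CPM and among neutrophils alone at 378, 295 and 353 CPM. The young neutrophil value rests on 21 UMIs in 12 cells. Gadd45b was higher in the young library in both kinds, at 278 CPM (218 to 351) against 59.8 CPM (54.7 to 65.2) of the aged library in monocytes and 612 CPM (424 to 855) against 171 CPM (155 to 187) in neutrophils.

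Between the treated and untreated aged libraries, all 3 Gadd45 genes were higher in aged-GA myeloid cells as a class, with log2 ratios of 0.91 (0.78 to 1.05) for Gadd45a, 0.61 (0.47 to 0.77) for Gadd45b and 0.95 (0.71 to 1.26) for Gadd45g. Within monocytes these ratios were -0.10 (-0.56 to 0.34), 0.13 (-0.17 to 0.42) and 0.64 (0.11 to 1.23), and within neutrophils 0.26 (0.10 to 0.41), 0.19 (-0.02 to 0.40) and 0.46 (0.10 to 0.83). Neutrophils were 841 of 2130 aged and 507 of 846 aged-GA myeloid cells, so the make-up of the class differed along with the ratio. Of the 3, Gadd45g had an interval above 0 in both kinds of cell, although it was at 0.072 in monocytes with Ace or Cd300e, a gate chosen after seeing the data.

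The lower Gadd45 levels of the aged lymphocytes were also seen in narrower gates. T cells with Cd8a or Cd8b1 and no Cd4 had log2 ratios between aged and young of -1.56 for Gadd45a, -1.49 for Gadd45b and -1.23 for Gadd45g, and T cells with Cd4 and no Cd8 chain -1.05, -0.99 and -0.82. Naive and memory cells take different shares of T cells at different ages: T cells with none of 6 memory or effector markers were 2867 of the 5203 young and 390 of the 1775 aged T cells. Within them Gadd45b had 225 CPM (young) and 80.2 CPM (aged), a log2 ratio of -1.48 (-1.74 to -1.25), and in T cells with at least 2 of these markers at 236 and 105 CPM, a ratio of -1.16 (-1.31 to -1.02). A B-cell gate chosen after seeing the data, which took cells with Ighd (the heavy chain of IgD) and none of Zbtb20, Fcrl5 or Mzb1, gave -1.46 for Gadd45a, -2.24 for Gadd45b and -1.64 for Gadd45g.

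**Figure D3:**
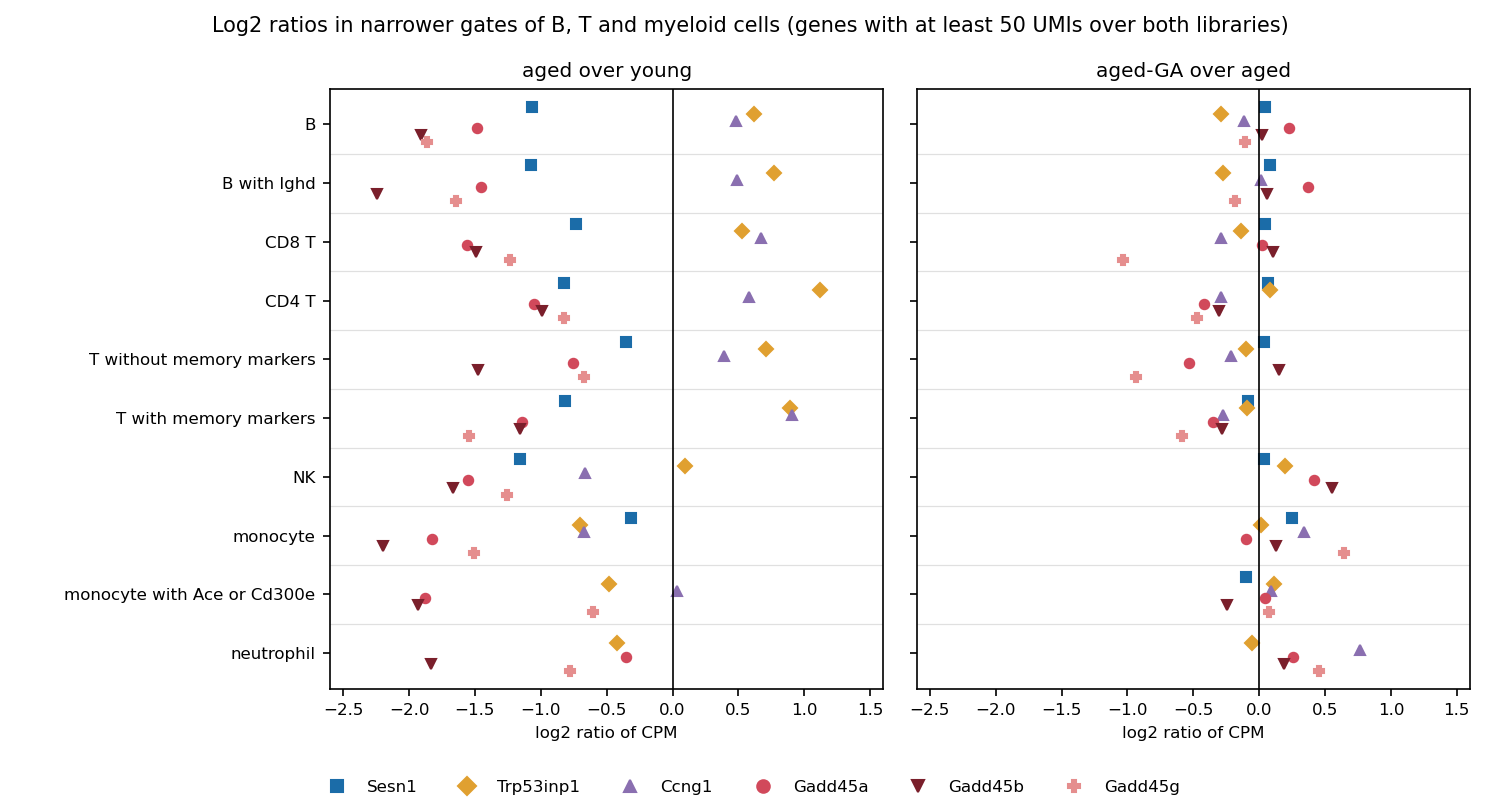
Log2 ratio of CPM (x axis) of 6 genes (symbols) in B, T, NK, monocyte and neutrophil gates and in narrower gates of them (rows), aged over young on the left and aged-GA over aged on the right, for genes counted with 50 UMIs or more. In B and T gates the Gadd45 genes and Sesn1 lie left of 0 on the left panel and Ccng1 and Trp53inp1 right of it, as -2.24 for Gadd45b and 0.77 for Trp53inp1 in B cells with Ighd.

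Gadd45b is itself an early response gene, and handling of cells can raise such genes, so the levels were set beside 16 genes of stress at isolation. In B cells these genes were also lower in the aged library: 9 of 16 counted genes were lower by more than 1.5-fold and none higher, where 3.72% of all genes were lower and 15.7% higher. Their median log2 ratio was -0.75, where that over all genes was 0.17, and Dusp1, a phosphatase of stress kinases, was at 453 CPM (young) and 157 CPM (aged). In T cells 3 of 16 were higher (Atf3, Nr4a1 and Klf6; 23.4% of all genes) and 1 lower (Hspa1b; 3.71%), with a median of -0.22, where all genes had 0.27. In NK cells 2 of 12 were lower (Ier2 and Hsp90aa1; 10.6% of all genes), with a median of -0.45. In myeloid cells 4 of 16 were higher (Fos, Fosb, Egr1 and Atf3; 24.9% of all genes) and 3 lower (Nr4a1, Hspa1b and Hsp90aa1; 18.2%), with a median of -0.20 and a summed level of 8501 CPM (young) and 8166 CPM (aged). Among them Egr1 had 92.8 and 401 CPM and Nr4a1 938 and 553 CPM. Between aged-GA and aged cells, 8 of 16 were higher in myeloid cells (7.42% of all genes), with a median of 0.54, and 4 of 14 in B cells (Fos, Fosb, Jun and Egr1; 1.17%). Summed over the 16 genes, aged and aged-GA levels were 8166 and 12904 CPM in the myeloid class. They were 6034 and 7229 CPM in monocytes and 15209 and 19223 CPM in neutrophils. Young levels were 8010 CPM in monocytes and, from 12 cells, 9830 CPM in neutrophils. The share of neutrophils in the class differed between the libraries, and its part in the class values was not tested. The part of the stress genes in the Gadd45 levels was not tested, but levels can be read in cells without 4 of them.

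Cells with no UMI of Fos, Jun, Egr1 or Atf3 held 588 young, 1621 aged and 1233 aged-GA B cells. In them Gadd45b was at 261 CPM (240 to 284), 71.7 CPM (65.0 to 78.9) and 68.9 CPM (61.8 to 76.5), below the B cells of the same library that had such a UMI, at 329, 88.9 and 87.8 CPM, with no overlap of the intervals. T cells without such a UMI had 188 CPM (174 to 202) of Gadd45b in the young, 89.9 CPM (77.2 to 104) in the aged and 72.7 CPM (62.6 to 84.1) in the aged-GA library. In B and T cells with no such UMI the intervals of the young and the aged libraries again did not overlap.

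**Figure D4:**
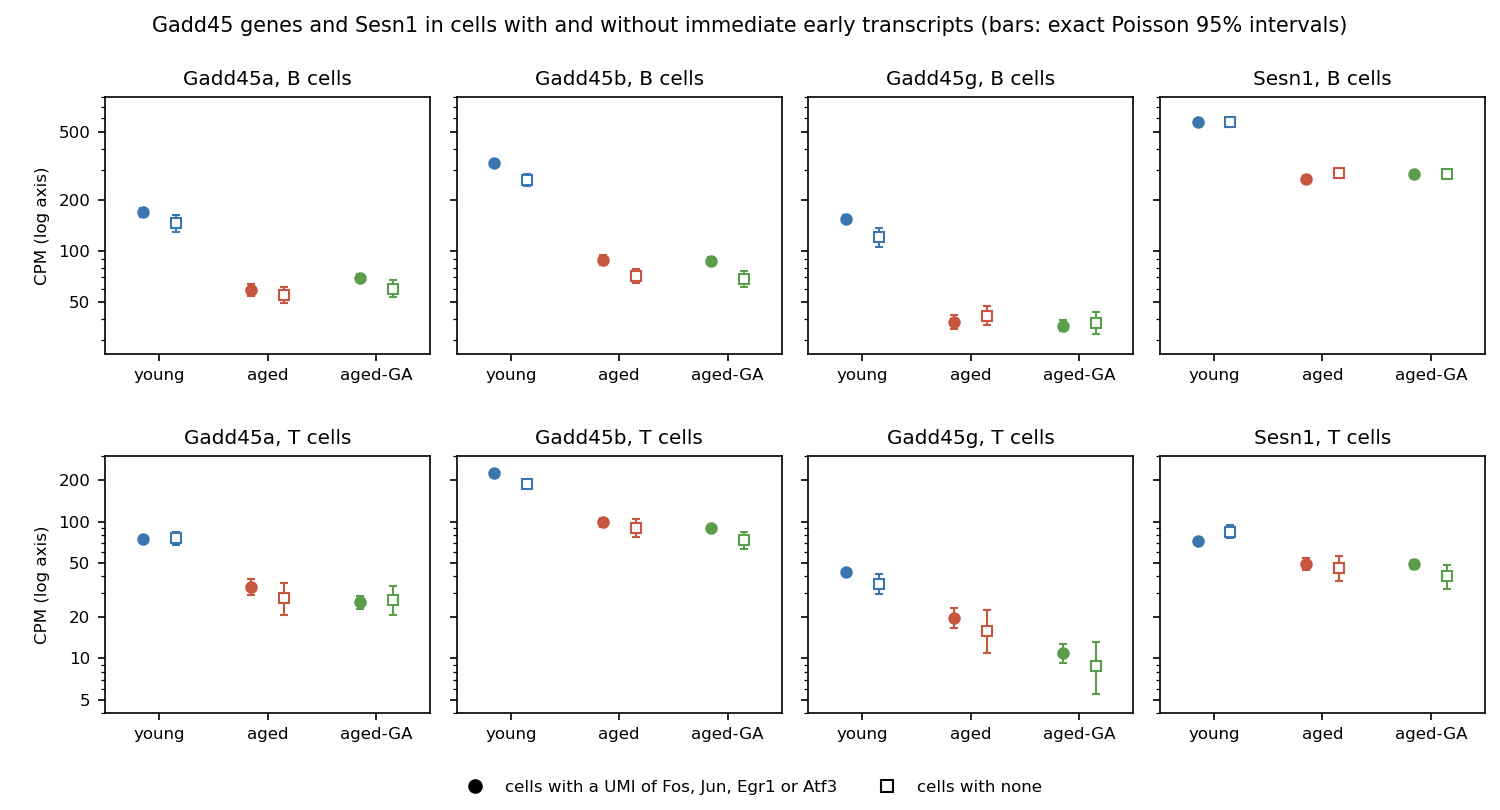
Level in CPM (log axis) of the Gadd45 genes and Sesn1 in B cells (top) and T cells (bottom) of each library, in cells with a UMI of Fos, Jun, Egr1 or Atf3 (filled circles) and with none (open squares). Bars are exact Poisson 95% intervals. For the Gadd45 genes both the filled and the open points of the young library lie above those of the aged libraries, as 329 and 261 against 88.9 and 71.7 CPM of Gadd45b in B cells, where the open points lie below the filled ones in all 3 libraries.

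The share of cells with a UMI was largest for Gadd45b among the 3 genes in B and T cells. It had a UMI in 61.3% of B cells in the young library, 24.2% in the aged and 27.3% in the aged-GA library, at median depths of 3409, 3129 and 3813 UMIs per cell. With each cell thinned to 1000 UMIs the shares were 25.3% (23.5 to 27.1%), 8.15% (7.34 to 9.02%) and 7.99% (7.28 to 8.74%), and the young library again stood above both others, with 4, 7 and 9 shallower cells left out. A single aged-GA B cell held 87 UMIs of Gadd45b, the most of any cell, out of 2116 in that class. In T cells the thinned shares were 19.3%, 10.2% and 8.88%. Gadd45g was found in few T cells, 15.3%, 7.77% and 5.37% of them before thinning, and Gadd45a in 28.9%, 13.3% and 13.5%.

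As a reference for RNA that comes with red cells, their barcodes (fewer than 200 genes and over 50% haemoglobin UMIs) were read. RNA of the red cells and free RNA cannot be told apart in them, so they do not measure free RNA alone. Gadd45b was found in 3.83% of 941 such barcodes in the young, 0.586% of 5460 in the aged and 0.918% of 3812 in the aged-GA library, under the shares in B cells of the same library, at median depths of 8636, 4955 and 5387 UMIs. Most of these UMIs were of haemoglobin (7208630 against 377901 others in the young library), so neither depths nor shares compare directly with those of B cells. Gadd45a was more frequent there, with a UMI in 21.6%, 6.15% and 6.37% of them, beside 41.1%, 18.4% and 24.0% of B cells. Scaled to UMIs not of haemoglobin, Gadd45a was at 836, 360 and 343 CPM in these barcodes and 171, 65.4 and 74.0 CPM in B cells. On that scale Gadd45b was at 95.3, 27.8 and 37.2 CPM in the barcodes and 328, 93.9 and 92.1 CPM in B cells. Scaled to the haemoglobin that the gated cells held, red cell RNA with this content would add 1.24 CPM of Gadd45a to young T cells and 1.36 CPM to aged T cells, against measured levels of 74.2 and 31.9 CPM.

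Sesn1 was the member with the clearest order of cell types. It was highest in B cells, then NK cells, T cells and myeloid cells in each library, and no intervals of neighbouring classes overlapped within a library. B cells had 574 CPM (558 to 589) in the young, 273 CPM (265 to 281) in the aged and 282 CPM (275 to 288) in the aged-GA library, a log2 ratio of -1.07 (-1.13 to -1.01) between aged and young. NK cells had 239 CPM (209 to 272) in the young, 107 CPM (83.5 to 134) in the aged and 109 CPM (85.3 to 138) in the aged-GA library, a ratio of -1.16 (-1.57 to -0.78). T cells had 73.4, 48.2 and 47.4 CPM, a ratio of -0.60 (-0.76 to -0.46). Myeloid cells held little of it, at 12.4, 10.9 and 10.7 CPM, the first from 4 UMIs. The aged-GA library differed little from the aged library in each class, with log2 ratios from -0.02 to 0.05. A UMI of Sesn1 was in 82.0% of B cells of the young and 58.8% of the aged library, and in 5.88% and 6.34% of myeloid cells, whose median depths were 4101 and 4963 UMIs. Sesn1 had about the same level in young B cells with an immediate early UMI, at 574 CPM, and without, at 570 CPM. Young T cells had 71.6 CPM (68.3 to 75.1) with and 84.2 CPM (75.4 to 93.8) without such a UMI, with no overlap of the intervals. In B and T cells of the aged and aged-GA libraries these intervals overlapped. Among B cells removed for their mitochondrial share, Sesn1 was at 631 CPM (586 to 678) in the young, 634 CPM (512 to 777) in the aged and 304 CPM (272 to 338) in the aged-GA library. Its lower level in aged B cells was thus not seen in those 111 aged cells.

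Trp53 and Mdm2, the pair at the centre of the pathway, differed less between the young and aged libraries than the Gadd45 genes in B and T cells. Trp53 was at 77.8 CPM (72.2 to 83.8) in young, 65.8 CPM (62.0 to 69.9) in aged and 68.0 CPM (64.8 to 71.3) in aged-GA B cells, a log2 ratio of -0.24 (-0.38 to -0.10) between aged and young. In T cells it was at 70.6, 66.5 and 72.9 CPM, with overlapping intervals, and in myeloid cells at 34.0, 33.6 and 34.9 CPM. Myeloid cells thus had the lowest value of Trp53 in each library, although their interval overlapped with that of NK cells in each. Within the myeloid gate Trp53 was at 39.7 CPM in aged monocytes and 7.24 CPM in aged neutrophils. In NK cells, from 68, 31 and 31 UMIs, it was at 70.1, 45.9 and 47.7 CPM, with an interval of the log2 ratio from -1.27 to 0.02. Mdm2, the ligase that p53 induces and that degrades p53, was higher in aged than in young T cells, at 46.6 CPM (42.2 to 51.2) against 32.9 CPM (30.8 to 35.1), a log2 ratio of 0.49 (0.33 to 0.67), where the median over all genes was 0.27. In B cells it was at 36.2, 40.9 and 41.4 CPM, a ratio of 0.17 (-0.02 to 0.37) that equals the median over all genes. In myeloid cells it was at 34.0 CPM from 11 UMIs in the young and 60.3 CPM from 811 UMIs in the aged library, and at 65.9 CPM in the aged-GA library. NK cells had 46.4, 59.3 and 60.0 CPM, with overlapping intervals.

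The remaining targets split by cell type. Trp53inp1, which couples p53 to cell death and autophagy, was higher in the aged library in both B and T cells. T cells had 58.6 CPM (55.8 to 61.5) in young, 111 CPM (104 to 118) in aged and 103 CPM (98.0 to 108) in aged-GA cells, a log2 ratio of 0.91 (0.80 to 1.03), and the ratio was 1.12 (0.92 to 1.33) in T cells with Cd4 and 0.53 (0.32 to 0.75) in those with a Cd8 chain. B cells had 46.9 CPM (42.5 to 51.5), 72.5 CPM (68.5 to 76.8) and 59.3 CPM (56.3 to 62.4), so that the aged-GA library lay between the others, with log2 ratios of 0.62 (0.47 to 0.79) and -0.29 (-0.40 to -0.18). Ccng1, which encodes cyclin G1, a partner of Mdm2, was at 21.6, 35.7 and 29.0 CPM in T cells and 15.9, 22.6 and 20.8 CPM in B cells, with log2 ratios between aged and young of 0.70 (0.53 to 0.92) and 0.48 (0.23 to 0.79). Its order was the opposite in myeloid cells, at 46.4 CPM from 15 UMIs in young against 24.0 CPM from 322 UMIs in aged cells, a ratio of -0.93 (-1.70 to -0.10), but 0.037 in monocytes with Ace or Cd300e, with an interval on both sides of 0. NK cells had 38.2, 23.7 and 35.4 CPM of Ccng1 with overlapping intervals. Trp53inp1 had 52.6, 56.3 and 64.6 CPM in NK cells and 46.4, 34.3 and 51.4 CPM in myeloid cells. Within monocytes and within neutrophils, its aged and aged-GA intervals overlapped. In the aged and aged-GA libraries its level was highest in T cells, with intervals above those of all other classes.

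Zmat3, an RNA-binding protein induced by p53, and Phlda3, an inhibitor of the kinase Akt, were near the limit of these data. Zmat3 was at 1.98, 3.32 and 3.30 CPM in B cells and 5.26, 6.98 and 6.16 CPM in T cells of the young, aged and aged-GA libraries, with overlapping intervals in both. NK cells had 7.22, 13.3 and 4.62 CPM of it and myeloid cells 6.19, 4.24 and 2.33 CPM, the first of these from 2 UMIs. Phlda3 was seen in T cells from 22, 7 and 31 UMIs, at 0.776, 0.776 and 1.89 CPM. It had 0 UMIs in young B, NK and myeloid cells, which allows up to 0.329, 3.09 and 9.28 CPM at 3 counts. In aged and aged-GA myeloid cells it was at 5.43 CPM (4.26 to 6.83) and 6.52 CPM (4.33 to 9.42), under that limit, so a difference from the young library was not detectable at this depth over the whole class. Most of the Phlda3 UMIs were in monocytes with Ace or Cd300e, which held 59 of its 73 aged and 20 of its 28 aged-GA myeloid UMIs, at 19.0 CPM (14.4 to 24.5) and 20.9 CPM (12.7 to 32.2). The 50 young cells of this gate held 0 UMIs, which allows up to 12.7 CPM at 3 counts. Their exact interval ran to 15.6 CPM, below the aged level but overlapping its interval, and the gate was chosen after seeing the data.

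Genes were counted where a pair of libraries held 50 UMIs or more, and called where the ratio passed 1.5-fold. Of the set, 9 of the 10 genes were counted in B cells between aged and young: 1 was higher (Trp53inp1) and 4 lower (Sesn1 and the Gadd45 genes), where 15.7% of all 9875 genes counted were higher and 3.72% lower. In T cells 2 of 9 were higher (Ccng1 and Trp53inp1) and 4 lower (the same 4 as in B cells), against 23.4% and 3.71% of 10273 genes. In NK cells none of 8 was higher and 6 were lower (Trp53, Ccng1, Sesn1 and the Gadd45 genes), against 9.44% and 10.6% of 4164 genes. In myeloid cells Mdm2 was higher and 4 of 10 were lower (Ccng1 and the Gadd45 genes), with Phlda3 not called since its young count was 0, against 24.9% and 18.2% of 8989 genes. Those shares do include genes with 0 UMIs in 1 library, a rule under which Phlda3 would be called higher too. Several of these calls were lost under some alternatives: Sesn1 in T cells passed the limit in 11 of 17, Ccng1 in T cells in 13 of 17 and Trp53inp1 in B cells in 8 of 14, all with the same sign. In NK cells Trp53 passed it in 6 of 11 and Ccng1 in 5 of 9. The intervals of these NK ratios held 0 (-1.27 to 0.02 and -1.63 to 0.20), as did that of Mdm2 in myeloid cells (-0.02 to 1.83). Nothing is read from the members' counts beside the shares over all genes, since the genes were chosen with the same comparison known. The median log2 ratio of the members was -0.24 in B, -0.09 in T, -0.91 in NK and -0.44 in myeloid cells (-0.46 without Phlda3), beside medians over all genes of 0.17, 0.27, -0.05 and 0.04. Relative to those medians, Gadd45b stood at -2.08 in B and -1.47 in T cells, and Trp53inp1 at 0.45 and 0.63.

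Between aged-GA and aged cells few members passed the same limit. In B cells none of 9 did, where 1.17% of 10605 genes were higher and 1.07% lower. In T cells none of 9 was higher and Gadd45g was lower, with a log2 ratio of -0.78 (-1.15 to -0.52), where 1.19% of 9964 genes were higher and 2.01% lower. Gadd45g had the same direction in T cells with Cd8 chains, at -1.03, in those with Cd4, at -0.47, and in those with and without memory markers, at -0.59 and -0.94. In NK cells none of 6 passed it, where 5.09% of 3674 genes were higher and 3.48% lower. In myeloid cells the 3 Gadd45 genes were higher and Zmat3, from 57 and 10 UMIs, lower, where 7.42% of 9425 genes were higher and 9.1% lower. The interval of this Zmat3 ratio held both signs, with an upper end of 0.12, so no direction is read from it. Medians of the members were 0.02 in B, -0.15 in T, 0.12 in NK and 0.21 in myeloid cells, and those over all genes -0.01, -0.04, 0.05 and -0.04.

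The 34 other p53 target genes did not share 1 direction. Between aged and young B cells, 3 of 28 counted were higher (Fas, Plk3 and Tigar) and 3 lower (Btg2, Ephx1 and Rap2b), beside 15.7% and 3.72% of all genes, with a median log2 ratio of 0.05. In B cells Fas, the death receptor, had 1.65 CPM (young) and 6.16 CPM (aged), and Btg2, an antiproliferative factor that is also an immediate early gene, 582 and 311 CPM. In T cells 7 of 28 were higher and 2 lower, beside 23.4% and 3.71% of all genes, with a median of 0.25 beside 0.27 over all genes: Pmaip1, which encodes the death protein Noxa, had 7.27 CPM (young) and 21.7 CPM (aged) and the kinase Plk3 had 9.39 and 23.9 CPM, whereas Plk2 had 19.5 and 6.43 CPM and Bbc3, which encodes Puma, 130.0 and 71.1 CPM. In NK cells 1 of 10 was higher (Dgka) and 2 lower (Ei24 and Ccnk), beside 9.44% and 10.6% of all genes. In myeloid cells 8 of 25 were higher and 7 lower, beside 24.9% and 18.2%. The 8 include Tigar and Aen, which had 0 young UMIs and would not be called under the rule used for Phlda3. Among the lower genes was Cdkn1a, the inhibitor p21, with 393 CPM (young) and 222 CPM (aged). In T cells, by contrast, Cdkn1a was among the 7 higher genes. Between aged-GA and aged cells none of 29 in B, 28 in T and 8 in NK cells passed the limit, and in myeloid cells 4 of 25 were higher (Btg2, Plk2, Plk3 and Cd80) and 3 lower (Polk, Dcxr and Rps27l), beside 7.42% and 9.1%.

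Of 16 regulators of p53, the deubiquitinase Usp7, the damage adaptor Trp53bp1 and the kinase Hipk2 were higher in the aged library in both B and T cells, 3 of 15 counted in each, and none was lower, where 15.7% of all genes in B and 23.4% in T cells were higher. In T cells Trp53bp1 had 7.27 CPM (young) and 18.1 CPM (aged), and in B cells Usp7 had 53.2 and 91.2 CPM. In NK cells 2 of 9 were higher (Usp7 and Ep300), beside 9.44% of all genes. None passed the limit between aged-GA and aged cells in B, T, NK or myeloid cells. Another list held 13 genes, drawn up as partners and relatives of the Gadd45 proteins and sestrins. Between aged and young B cells 4 of 10 counted were higher (Map3k4, Mapk14, Rptor and Wdr24), beside 15.7% of all genes. In the same cells 1 was lower (Ppp1r15a, which reverses the stress-induced block of translation), beside 3.72%. In T cells 6 of 11 were higher, beside 23.4% of all genes, and none was lower. Mapk14, the p38 kinase downstream of Gadd45 proteins, had 26.6 CPM (young) and 46.0 CPM (aged) in B cells, and Ppp1r15a had 299 and 155 CPM. In NK cells 1 of 7 was higher (Rptor; 9.44% of all genes), and in myeloid cells 4 of 10 were higher (Map3k4, Sesn3, Nprl2 and Wdr24; 24.9%) and 1 lower (Rptor; 18.2%). The young myeloid counts behind these calls were 4 UMIs of Map3k4, 1 each of Sesn3, Nprl2 and Wdr24, and 6 of Rptor. The interval of each of these myeloid ratios held both signs, as -1.75 to 6.10 for Sesn3 and -1.85 to 0.77 for Rptor, so no direction is read from them. Between aged-GA and aged cells none passed the limit in B and T cells. In NK cells 1 of 5 was higher (Gadd45gip1; 5.09% of all genes), with an interval that held 0 (-0.10 to 1.33). In myeloid cells 1 of 10 was higher (Sesn3; 7.42%) and 2 lower (Wdr24 and Gadd45gip1; 9.1%).

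Genes most like single members over the 12 values of 4 classes in 3 libraries, by Pearson's r of log2(CPM + 1), were Mars2 for Sesn1 (0.98), Traf4 for Trp53 (0.97), Gng11 for Mdm2 (0.96), Saysd1 for Zmat3 (0.95), Ric8b for Ccng1 (0.92), AY036118 for Gadd45b (0.91), Gpbp1l1 for Trp53inp1 (0.90) and Atf4 for Gadd45g (0.88). Among the members themselves, the 3 Gadd45 genes had r of 0.70 to 0.75 with each other, Sesn1 and Trp53 had 0.79, and Gadd45a and Trp53inp1 -0.76. These are descriptions over 12 values that share 3 libraries and their depth, base composition and free RNA, and they carry no p.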

How the data were processed

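The authors ran Cell Ranger, and the counts they deposited are UMIs of each gene in each barcode with no normalization, in 1 matrix per library. The file headers name version 5.0.0, the methods of the study name another version, and the submitters' processing notes give mm10 as the build. Barcodes were kept, as in the study, with 200 or more genes, a gene number not above 90% of the library's highest, and mitochondrial UMIs of 7.5% or less. No doublet caller was run, and the gates, which allow at most 1 marker of another class, limit doublets of different types. The members and the lists of genes were chosen with earlier results of these data known. From each other list, up to 4 counted genes with the largest ratio in each direction were to be named, and any further name was chosen after its value was seen. UMIs were summed per library and class in numpy 2.4.6, intervals were taken from scipy 1.17.1, and the intervals were checked on simulated counts. The simulated counts held counting error alone, so that check could not show how the intervals cover spread between cells or mice. Total UMIs per library were 58894294, 82260961 and 98155671 in young, aged and aged-GA mice. No test was possible, each group being 1 library. Alternatives changed the gate, the cell filters, the denominator, the scaling, the weight of cells, the pseudocount, the UMI minimum, the fold limit and the make-up of classes. The gene most like Gadd45a and the p53 regulators between aged and young myeloid cells are not reported here.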

Additional observations from a re-analysis of the deposited data

Results flagged for a closer look

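Several genes had ratios whose counting intervals lay on opposite sides of 0 in different cell types under the same comparison, and the differences themselves were not tested. Between aged and young libraries this was so for Ccng1, at 0.48 in B cells and 0.70 in T cells against -0.93 in myeloid cells. Between aged-GA and aged libraries it was so for Trp53inp1, at 0.57 in myeloid and -0.29 in B cells, for Gadd45a, at 0.91 in myeloid and 0.22 in B cells against -0.29 in T cells, for Gadd45b, at 0.61 in myeloid and -0.15 in T cells, and for Gadd45g, at 0.95 in myeloid and -0.78 in T cells. These myeloid values are of the whole class, in which the share of neutrophils differed between the libraries. Within monocytes and within neutrophils, the aged and aged-GA intervals of Trp53inp1 levels overlapped. The part of the make-up in its myeloid ratio was not tested.

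Cells removed for a mitochondrial share over 7.5% were used in no comparison. Among those that passed the T-cell gate, Gadd45b was at 270 CPM in the young, 118 CPM in the aged and 141 CPM in the aged-GA library, in 388, 89 and 194 cells, with the highest level in the young library. Sesn1 differed from the kept cells: among removed cells of the B gate it was at 631, 634 and 304 CPM.

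Red cell barcodes were not part of any comparison either, and Gadd45a was found in them: 21.6% of them had a UMI of it in the young library, 6.15% in the aged and 6.37% in the aged-GA library. Scaled to the UMIs that were not of haemoglobin, its levels were 836, 360 and 343 CPM. On the same scale Gadd45g was at 5.29, 6.95 and 10.6 CPM, from only 2, 8 and 10 UMIs, so no order is read from it. Sesn1 was at 7.94, 46.9 and 76.5 CPM, from 3, 54 and 72 UMIs.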

How the results depend on the processing

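No paired analysis was possible because each group was 1 library. Over the alternatives, 852 values of single members stayed within the counting interval of the reported value, 118 moved outside it, and 6 that were past 1.5-fold changed sign. Those 6 were all in myeloid cells: Gadd45a between aged and young at 0.011 as a mean over cells and 0.43 in cells with 2000 to 6000 UMIs (a window chosen after seeing the data), where Gadd45g was at 1.11; Ccng1 at 0.037 in monocytes with Ace or Cd300e; and, between aged-GA and aged, Gadd45a at -0.10 in monocytes and Gadd45b at -0.24 in monocytes with Ace or Cd300e. The causes were not tested. In B, T and NK cells the Gadd45 genes, and Sesn1 in B and NK cells, were lower in the aged library by more than 1.5-fold under all alternatives that counted them. Sesn1 in T cells fell short of 1.5-fold in 6 of 17 alternatives (lowest size at -0.36, in T cells without memory markers), Ccng1 in T cells in 4 of 17 and Trp53inp1 in B cells in 6 of 14. In NK cells Trp53 was past 1.5-fold in only 6 of 11 and Ccng1 in 5 of 9.

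Median log2 ratios of the members between aged and young were -0.58 in B and -0.36 in T cells under the stricter gate. They were -0.41 in B and -0.36 in T cells after centring, -0.60 and -0.46 in B and T cells without immediate early UMIs, and -0.54 in B cells with 2000 to 6000 UMIs. Without immediate early UMIs, Zmat3 was not counted, with 4 young and 16 aged UMIs in B cells and 22 and 11 in T cells. The median there lay between the ratios of Trp53 and Sesn1, so it is not read as a drop of the set. In B cells Zmat3 was counted in 10 alternatives and Trp53 in 14. In NK cells the value was -1.73 under the stricter gate, that of Sesn1 alone, and -2.19 without immediate early UMIs. Few members were counted in these 2 NK settings, so neither value describes the set. Medians of other p53 targets were -0.028 in T cells after centring and -1.54 in myeloid cells without immediate early UMIs, aged over young, and 0.84 in NK cells under the stricter gate, aged-GA over aged. The myeloid value rests on 3 young cells and is not read as a change of direction. In NK cells only 8 of the 34 targets were counted even under the main gate. Members past the limit between aged and young were 3 in T and 3 in myeloid cells at 2-fold, the latter with Phlda3 included despite its 0 young UMIs. In NK cells they were 1 under the stricter gate, 2 without immediate early UMIs and 2 at 200 UMIs. Between aged-GA and aged they were, in T cells, 0 with 10 CPM added, 2 at 20 UMIs and 0 at 2-fold, in NK cells 2 as means over cells, and in myeloid cells 2 with 10 CPM added, 0 at 2-fold and 1 in cells with 2000 to 6000 UMIs. Thinned to 1000 UMIs, shares of cells with Gadd45b were 25.3, 8.15 and 7.99% of B and 19.3, 10.2 and 8.88% of T cells in young, aged and aged-GA mice. Depth limits Phlda3, Zmat3 and all NK and young myeloid values.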
